A study of Mus musculus with 15 samples.

Results

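The baseline described here is the transcriptome of B16-F10 cells under DMSO, the vehicle of the compound arm of the series. It was measured in 3 of the 15 RNA sequencing libraries, chosen by their treatment label and by no measured value. B16-F10 is a single mouse melanoma line, so every library is of 1 tumour's descendants. The other 4 groups, of 3 libraries each, were cells given 2 µM GSK126 (an inhibitor of the EZH2 methyltransferase), cells given 2 µM DZNep (3-deazaneplanocin A), cells given a scrambled siRNA (scr), and cells given an siRNA against Ezh2 (siEzh2). The duration of treatment is not given in the sources used here, and nothing says that the replicates came from separate cultures, so the spread between them and every p-value measure only these samples.

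Melanocytes descend from the neural crest and make melanin in melanosomes, where tyrosinase and the related proteins TYRP1 and DCT convert tyrosine to pigment on amyloid fibres of PMEL. The transcription factor MITF, with SOX10 and PAX3, drives these genes and binds an E-box (a short CATGTG or CACGTG site) that in many pigment promoters is preceded by T. Polycomb repressive complex 2 (PRC2), with EZH2 as its catalytic subunit, methylates histone H3 at lysine 27, and its usual targets in differentiated cells are CG-rich promoters of developmental regulators.

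Promoters are shown first for 3 pigment genes and for 2 developmental regulators, 1 expressed in the baseline and 1 not. Promoter windows of 300 bases, from 250 before to 50 after the start site, came from RefSeq on GRCm38.p6, read 5′ to 3′ on the strand of the gene. The windows of Tyr (chr7:87493463-87493762, minus strand), Tyrp1 (chr4:80833963-80834262, plus strand) and Dct (chr14:118052197-118052496, minus strand) carry the extended E-box TCATGTG, or its reverse complement CACATGA, in capitals.
Tyr: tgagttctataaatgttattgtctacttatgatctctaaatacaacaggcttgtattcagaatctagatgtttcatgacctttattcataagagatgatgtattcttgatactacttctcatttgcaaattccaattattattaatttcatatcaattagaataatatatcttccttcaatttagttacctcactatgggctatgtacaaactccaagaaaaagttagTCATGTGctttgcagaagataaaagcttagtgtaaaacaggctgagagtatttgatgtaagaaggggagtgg
Tyrp1: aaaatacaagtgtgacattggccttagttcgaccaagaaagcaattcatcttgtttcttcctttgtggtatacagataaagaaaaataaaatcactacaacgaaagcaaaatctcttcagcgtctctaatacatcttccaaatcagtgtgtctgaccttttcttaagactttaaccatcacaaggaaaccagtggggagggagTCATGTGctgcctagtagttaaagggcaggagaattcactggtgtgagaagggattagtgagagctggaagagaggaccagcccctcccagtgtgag
Dct: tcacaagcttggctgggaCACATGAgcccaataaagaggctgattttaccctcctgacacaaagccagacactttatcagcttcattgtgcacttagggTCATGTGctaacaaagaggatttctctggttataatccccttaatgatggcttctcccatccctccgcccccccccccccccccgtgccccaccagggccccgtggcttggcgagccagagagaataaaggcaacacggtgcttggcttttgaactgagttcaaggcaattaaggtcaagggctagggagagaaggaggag
The window of Pou4f1 (chr14:104467950-104468249, minus strand), a POU homeobox gene expressed in the baseline, held 57 CG dinucleotides, in capitals, and that of Barx1 (chr13:48662786-48663085, plus strand), a homeobox gene at the counting floor, held 50 of them.
Pou4f1: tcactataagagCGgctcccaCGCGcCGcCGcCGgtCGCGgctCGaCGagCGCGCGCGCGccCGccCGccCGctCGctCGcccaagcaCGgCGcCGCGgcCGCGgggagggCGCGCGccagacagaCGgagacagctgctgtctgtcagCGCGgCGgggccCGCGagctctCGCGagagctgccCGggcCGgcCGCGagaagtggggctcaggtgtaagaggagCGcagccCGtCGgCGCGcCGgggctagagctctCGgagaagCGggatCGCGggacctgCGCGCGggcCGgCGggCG
Barx1: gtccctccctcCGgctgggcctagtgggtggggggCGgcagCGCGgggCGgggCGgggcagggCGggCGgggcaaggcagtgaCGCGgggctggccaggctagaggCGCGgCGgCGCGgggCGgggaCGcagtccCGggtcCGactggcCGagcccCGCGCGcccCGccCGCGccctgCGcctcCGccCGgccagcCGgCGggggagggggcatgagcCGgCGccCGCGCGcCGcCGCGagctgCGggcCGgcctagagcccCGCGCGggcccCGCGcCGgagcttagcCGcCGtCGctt
TCATGTG or TCACGTG, on either strand, was in the window of 7 of the 11 melanin genes that had one, against 8.4% of the 27025 genes with a window. The 7 genes were Tyr, Tyrp1, Dct, Slc24a5, Tspan10, Trpm1 and Atp7a. A match is a description of letters, not evidence of binding.

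The DMSO libraries held 42087020, 43721698 and 64545747 counts on genes in replicates 1, 2 and 3, and the 15 libraries spanned 33299524 to 64545747. Levels are CPM, the counts scaled to a common library size after TMM normalization, given as mean ± SD (n = 3). Levels of different genes are set against each other as CPM per kilobase (kb) of all exons joined, a length above that of most single transcripts. Shares of counts and lists in order of CPM do not correct for length. A gene was called expressed at 1 CPM or more in each DMSO library, at the floor with at most 3 counts over the 3 libraries (0.02 CPM), and low in between. Of 46078 identifiers, 12224 were expressed (26.5%), 6099 were low and 27755 were at the floor, 24062 of them with no count at all. Of 21596 protein-coding genes, 10949 were expressed (50.7%) and 7995 were at the floor (37.0%), and protein-coding genes held 96.5% of counts. Replicates differed most between libraries 1 and 3 (chi-square per degree of freedom 38.8, against 9.07 for libraries 1 and 2). The median coefficient of variation over the 9165 genes of at least 10 CPM was 6.04%. Of these genes, 179 varied more than 1.5-fold. Replicate 3 was the highest or lowest library in 176 of them, replicate 1 in 160 and replicate 2 in 22. The most variable were Gm23935, Gm42418, Srcap, Gm38399, Gm14303 and Syne2, which encodes a nuclear envelope protein and ran at 576, 412 and 283 CPM.

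**Figure D1:**
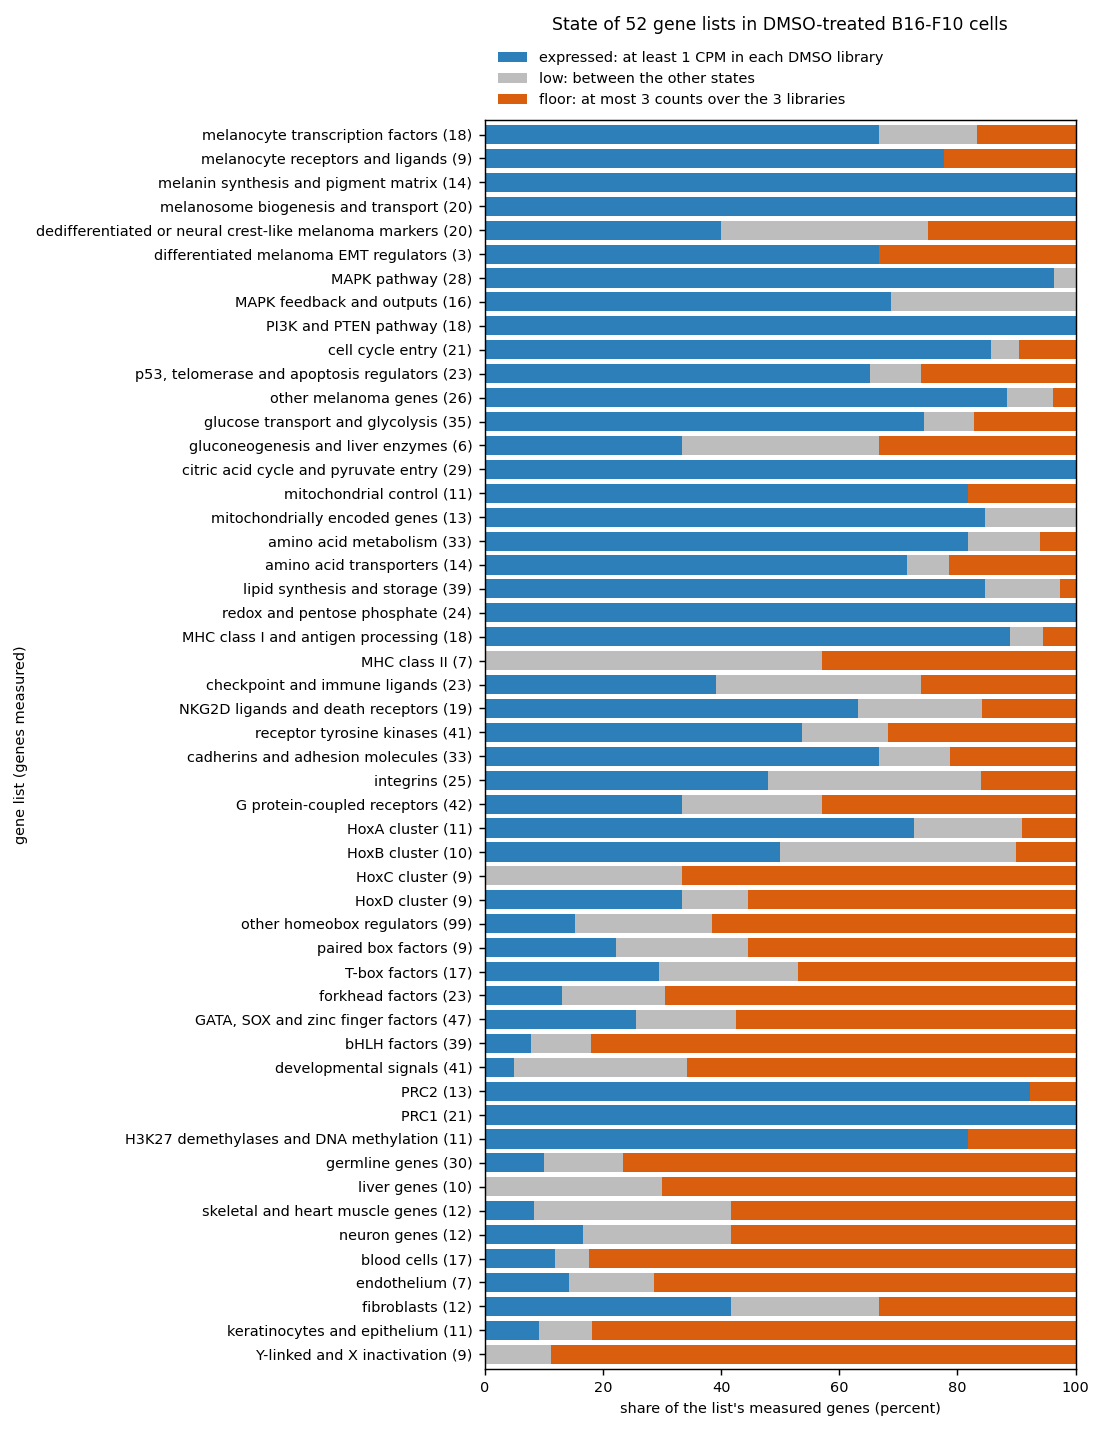
Each bar is 1 of 52 gene lists, with the number of genes measured in brackets, and shows the percentage of its genes that were expressed, low or at the floor in the 3 DMSO libraries. Melanin, melanosome, citric acid cycle, redox, PI3K and PRC1 lists were expressed in full, and most lists of developmental regulators and of other tissues had over 50% of their genes at the floor, with HoxA, HoxB, T-box and fibroblast genes below that.

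Counts were concentrated on mitochondrial and pigment genes. The 10 highest genes by CPM were mt-Nd1, mt-Cytb, mt-Co1, Tyrp1, mt-Nd5, Dct, Eef1a1 (the translation elongation factor), mt-Nd2, Gpnmb and mt-Nd4. They held 11.7%, 12.4% and 11.4% of counts in replicates 1, 2 and 3, and the mitochondrial chromosome held 8.45%, 9.27% and 8.36%. Tyrp1, Dct, Gpnmb and Pmel alone held 3.09%, 3.00% and 2.97%. Per kb, Tyrp1 (3201) and Pmel (1991) were eighth and ninth of all genes, behind 6 mitochondrial genes and Eef1a1, and the pseudogene Gm9794 was the tenth. Pseudogene levels are uncertain because reads of near-identical copies may be split.

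All 14 genes of the list of melanin synthesis and the pigment matrix were expressed. Tyrp1, which stabilises tyrosinase and oxidises an intermediate of eumelanin, was at 9095, 8934 and 9126 CPM (9052 ± 103, n = 3). Dct, the dopachrome tautomerase, was at 8943, 9350.3 and 8025 CPM. Gpnmb, a melanosomal glycoprotein, was at 8687, 7972 and 7339.5 CPM. For Tyrp1 the libraries were nearly equal, whereas library 3 was the lowest for Dct and Gpnmb. Pmel, the fibril protein, was at 4371, 4256 and 5060.3 CPM, and its locus is shared with Cdk2 and Dgka, annotated on the opposite strand, so its level is uncertain. Mlana, a melanosome membrane protein known as an antigen of T cells, was at 1160.5, 1243 and 1344 CPM, and Slc24a5, a potassium-dependent calcium exchanger, at 1469, 1546 and 1522 CPM. Tyr, the enzyme that starts melanin synthesis, was at 79.6, 67.5 and 66.3 CPM (71.1 ± 7.35, n = 3). Per kb, Tyr stood at 10 ± 1.03 against 3201 ± 36.5 for Tyrp1 and 1488 ± 115 for Dct (SD, n = 3), and no DMSO library brought the 3 close to each other. Tyr ranked 4829 among expressed genes per kb. The remaining members were Tspan10 (415 CPM), Slc45a2 (124), Atp7a (95.3), Trpm1 (64.4), Cited1 (28.2), Oca2 (27.9) and Tyro3 (11.7). The list was wider than its name, since Cited1 and Tyro3 are not themselves pigment enzymes or matrix proteins.

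The transcription factors of the lineage were uneven, with 12 of 18 expressed. Sox10, the neural crest regulator, led them, at 972, 995 and 903 CPM (957 ± 48.1, n = 3; 314 CPM per kb). Mitf, the central regulator of pigment genes, followed at 842, 779 and 754 CPM (128 CPM per kb). Pax3, a paired box factor upstream of Mitf, was at 336, 336 and 346 CPM. Per kb Sox10 stood above Mitf in each library. Tfap2a, a neural crest AP-2 factor (62.6 CPM per kb), and Id2, an inhibitor of bHLH factors (73.3), stood near Pax3 (54.8). Tfe3 (83.9 CPM), Sox5 (63), Sox9 (34), Usf1 (19.1), Pou3f2 (11.5), Tfeb (10.9) and Irf4 (6.08) were also expressed. Id3 (1.03 CPM, under 1 in replicate 1), Lef1 (0.599) and Tfap2b (0.314) were low, and Tfec, Sox2 and Foxd3 were at the floor.

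Receptors of the lineage gave a like mixture. Mc1r, the melanocortin receptor that raises cAMP, was at 237, 223 and 253 CPM (65.4 CPM per kb), the highest of this list per kb and also of the G protein-coupled receptors. Gpr143 (51.3 CPM), which controls melanosome size, Erbb3 (115), a neuregulin receptor, and Kit (33.3), the receptor of stem cell factor, were expressed, as were Frzb (28) and Adcy2 (6.06). Kitl, the ligand of Kit, was at 1.39 CPM. Ednrb, the endothelin receptor of melanoblasts, and its ligand Edn3 had no count in any DMSO library. All 20 genes of melanosome biogenesis and transport were expressed. The motor Myo5a was at 1882, 1676 and 1314 CPM, with library 3 the lowest. Per kb, Rab38 (223), which sorts pigment enzymes, led the list, followed by Rab27a (127), the motor Myo5a (109.7) and Mlph (81.4). Rab27a, Mlph and Myo5a together tether melanosomes to actin.

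**Figure D2:**
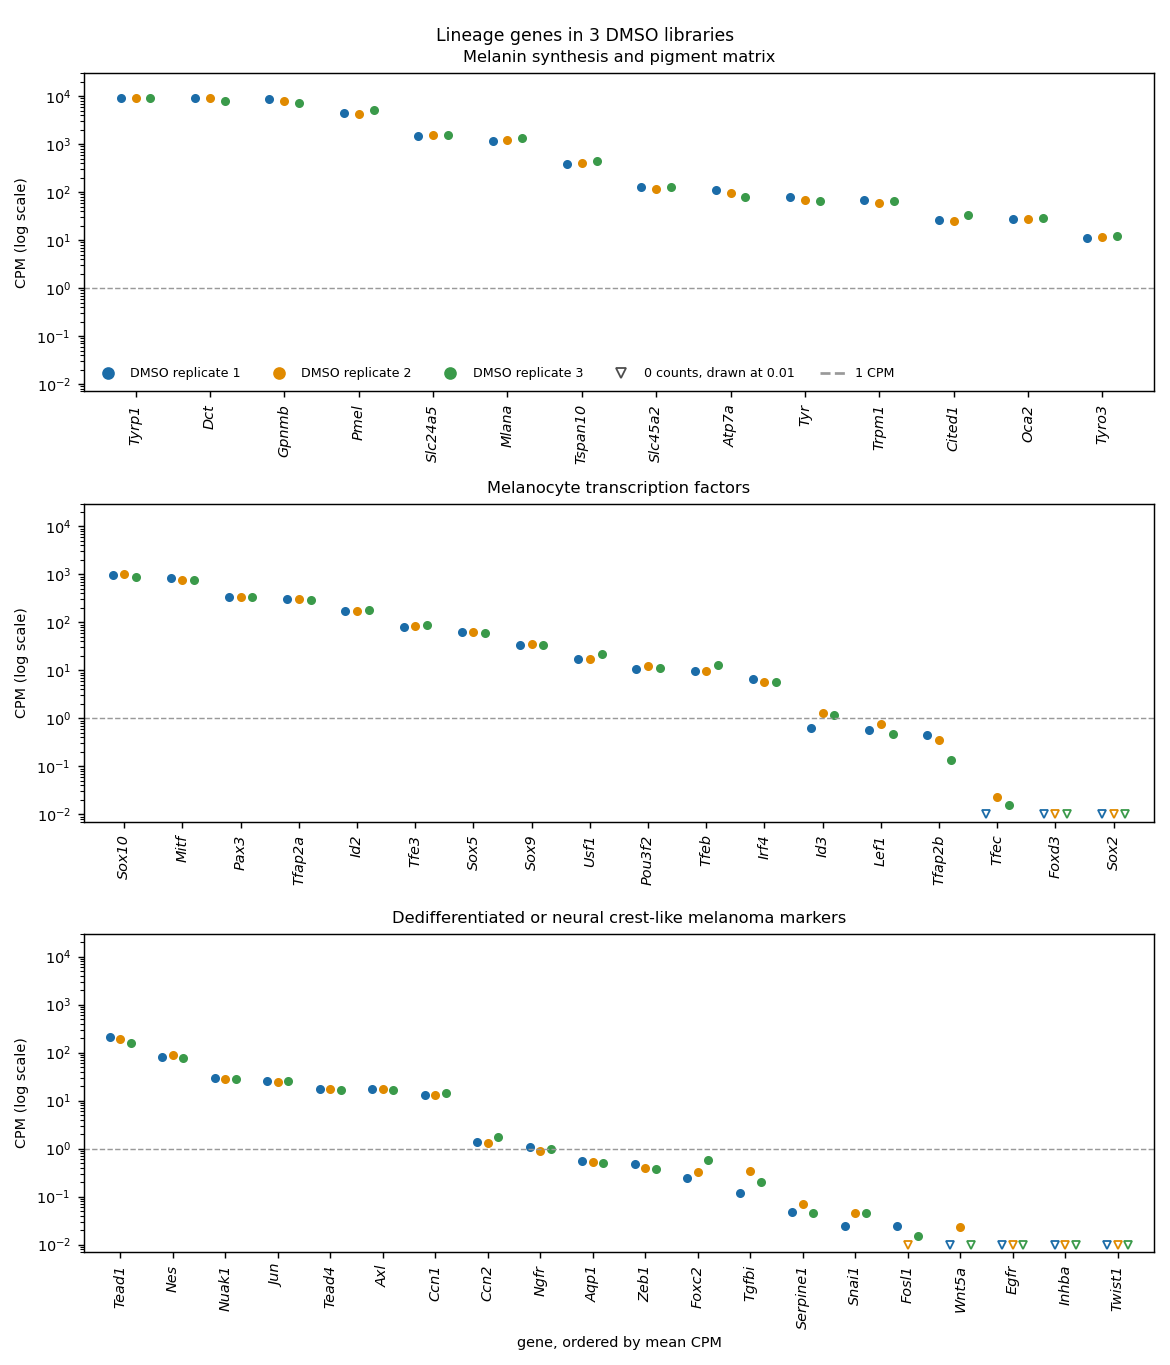
Points give the CPM of each gene on a log axis in each of the 3 DMSO libraries for melanin genes, melanocyte transcription factors and markers of dedifferentiated melanoma, with open triangles drawn at 0.01 for libraries with no count and a dashed line at 1 CPM. All 14 melanin genes lie above the line, with Tyr near 71.1 CPM and Tyrp1 near 9052 CPM, and 12 of the 20 dedifferentiation markers do not pass it in every library.

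Markers of dedifferentiated or neural crest-like melanoma were expressed in 8 of 20. Axl, a receptor kinase of invasive melanoma, was at 17.3, 17.6 and 17 CPM, with the 3 libraries close together. The transcription factor Tead1 (186 CPM), the intermediate filament Nes (82.9), the kinase Nuak1 (28.8), Jun (25.1), Tead4 (17.3), Ccn1 (13.4) and Ccn2 (1.47) were the others. Ngfr, the nerve growth factor receptor, was low at 1.08, 0.908 and 0.97 CPM. Egfr, Twist1 and Inhba had no count, and Wnt5a and Fosl1 were at the floor. Zeb2 (476 ± 70 CPM) and Snai2 (11.8), regulators linked to the differentiated state, were expressed. Twist2, listed beside them, had no count.

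Genes of the pathways that drive melanoma were broadly transcribed, with 111 of 131 listed genes expressed. In the MAPK pathway, which carries growth signals from receptors through RAS and RAF to ERK, 27 of 28 were expressed. Braf, the kinase most often mutated in human melanoma, was at 175, 149 and 124 CPM, and library 3 was the lowest. Of the RAS genes, Nras was at 27 CPM per kb and Hras at 4.9. Among the high genes per kb were the small GTPase Rac1 (128), the ERK kinase Mapk3 (97) and the adaptor Grb2 (38.6). Other kinases and regulators were Nf1 (258 CPM), Met (175), Sos1 (155), Spred1 (134), Gnaq (125.97), Rasa1 (104), Map2k1 (80.5), Gna11 (76.5), Insr (65.5), Araf (63.5), Map3k1 (61.5) and Map2k2 (50.3). Rasa2 (36.5 CPM), Erbb2 (19.8), Ksr1 (13.2), Fgfr1 (8.98), Igf1r (8.42) and Pdgfra (8.26) were receptors or regulators above 1 CPM, and the ligand Egf was low at 0.764 CPM. Genes that follow ERK activity were expressed in 11 of 16, led by Phlda1 (167 CPM per kb), with the phosphatases Dusp4 (94 CPM) and Dusp6 (60.8) and the growth regulator Myc (64.7). All 18 genes of the PI3K pathway were expressed, among them the kinase Akt1 (890.4 ± 74.8 CPM).

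Among genes of cell cycle entry, 1 D-type cyclin was high and 2 inhibitors had no count. Ccnd2, a D-type cyclin that activates CDK4 and CDK6, was at 1470.3, 1435 and 1350.2 CPM (1419 ± 61.7, n = 3; 151 CPM per kb). Its paralogues Ccnd3 (18.2 CPM per kb) and Ccnd1 (11.7) stood well under it. Cdk4 was at 235, 223 and 275 CPM (75.2 CPM per kb) and Cdk6 at 0.795 CPM per kb. Of the inhibitors, Cdkn1b (323 CPM), Cdkn1a (119.9), Cdkn2c (36.2) and Cdkn2d (28.8) were expressed and Cdkn1c was low (0.356). Cdkn2a, which encodes the p16INK4a and p19ARF tumour suppressors (chr4:89274471-89294653, GRCm38, minus strand), and Cdkn2b (chr4:89306299-89311039) had no count in any of the 15 libraries. The rest of the list held Cdk2 (656 CPM, with reads possibly shared with Pmel), Rbl2 (119), Rbl1 (114), Rb1 (54.1), E2f3 (52.9), E2f1 (36.9), Ccne1 (29.2), Ccne2 (29.1) and E2f2 (18.8).

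The neighbourhood of Cdkn2a was read after its counts had been seen. Mtap, which salvages methionine and lies on 1 side of it (chr4:89137122-89181081), was at 147, 165 and 156 CPM (156 ± 9.21, n = 3). From Gm26490 through Gm12606, Cdkn2a, Cdkn2b, Gm12609, Gm12610 and Gm12608 to Gm27580, no listed gene had a count in DMSO. Dmrta1, the next gene on that side (chr4:89679436-89694772), had 3 counts over the DMSO libraries. RNA counts do not tell a lost locus from a silent one.

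**Figure D3:**
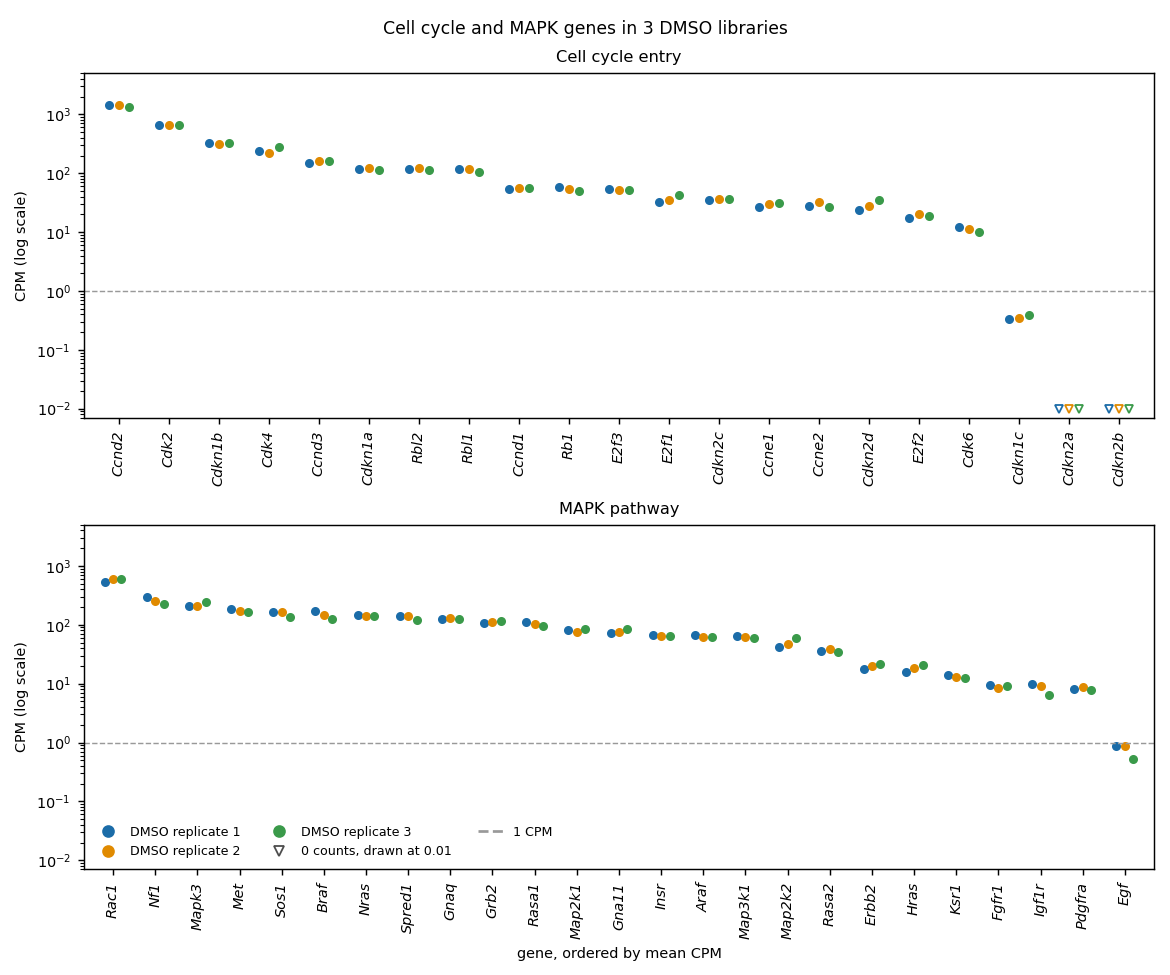
Points give the CPM of cell cycle entry and MAPK genes on a log axis in each of the 3 DMSO libraries, with open triangles drawn at 0.01 for libraries with no count and a dashed line at 1 CPM. Ccnd2 lies near 1419 CPM, Cdkn2a and Cdkn2b have no count in any library, and of the MAPK genes Egf lies under the line.

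Among regulators of p53 and apoptosis, 15 of 23 were expressed. Trp53 itself was at 300.4, 322 and 320.4 CPM, or 77.7 CPM per kb. Bak1, which opens the mitochondrial outer membrane in apoptosis, was at 108 CPM per kb, the survival factor Mcl1 at 91.2 and Bax at 37.1. Tert, the telomerase catalytic subunit, was low at 0.89 CPM. Pmaip1, a p53 target, and Bcl2a1a, Bcl2a1b and Bcl2a1d, near-identical copies of a survival factor whose reads may be unassigned, had no count, and Birc7 and Trp63 were at the floor. Of other genes altered in melanoma, 23 of 26 were expressed, among them beta-catenin Ctnnb1 (256 CPM per kb), the helicase Ddx3x (135) and the splicing factor Sf3b1 (43.8), while the receptor subunit Grin2a had no count.

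Metabolic genes were expressed in 171 of 204. Glycolysis was led by Aldoa, the aldolase, at 2865, 2586 and 2822 CPM (947 CPM per kb), and Pkm, the pyruvate kinase, at 2509.6, 2557 and 2973 CPM (536 CPM per kb). Ldha, which makes lactate, was at 208 CPM per kb and the enolase Eno1 at 171. Of the hexokinases, Hk2 was at 20.4 CPM per kb and Hk1 at 8.23, and the glucose carrier Slc2a1 at 13.9 (these 3 were named after their values were seen). Gapdh was at 50.1, 58.4 and 65.6 CPM, a level that is uncertain because the genome holds many near-identical copies. Hk3, Ldhc, Slc2a2 and Pgam2, isoforms of liver, blood, testis or muscle, were at the floor. G6pc and Pck1, the liver enzymes of glucose output, had no count, and the mitochondrial Pck2 (73.5 CPM) and Pcx (9.04) were expressed.

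All 29 genes of the citric acid cycle and pyruvate entry were expressed, among them succinate dehydrogenase Sdha (71.1 CPM per kb), Idh2 (67.4) and Dld (65.6). Ppargc1a, the coactivator that raises mitochondrial biogenesis and a target of MITF in some melanomas, was at 115, 114 and 91.4 CPM (107 ± 13.4, n = 3). Tfam (32.8 CPM), Polg (43.3) and Tfb2m (19.2), which maintain or read mitochondrial DNA, were expressed, and the uncouplers Ucp1 and Ucp3 were at the floor. Mitochondrially encoded genes were split. mt-Nd1 was at 19811, 23509 and 22081 CPM and mt-Co1 at 17869, 19791 and 17705 CPM. Per kb mt-Co1 was at 11945, against 17.6 for mt-Atp6, 13.9 for mt-Co2, 3.03 for mt-Co3 and 0.847 for mt-Nd3, although all come from the same polycistronic transcript, so the 4 low levels are uncertain. Nuclear copies of mitochondrial DNA can share such reads, and how such reads were counted is not given in the sources used here.

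In amino acid metabolism, 27 of 33 genes were expressed, led per kb by asparagine synthetase Asns (140.3), the serine enzyme Shmt2 (125.6), glutamine synthetase Glul (97) and the folate enzyme Mthfd2 (70.1), with the arginase Arg1 and the tryptophan oxygenase Tdo2 at the floor. Slc7a5 and Slc3a2, the light and heavy chains of the large neutral amino acid carrier, led the transporters at 159.5 and 76.4 CPM per kb, ahead of the glutamine carriers Slc38a2 (71) and Slc38a1 (59.7). Lipid synthesis was led by the stearoyl-CoA desaturase Scd2, at 2359.7, 2556 and 2505 CPM (453 CPM per kb), above its paralogue Scd1 (107 CPM per kb). The citrate lyase Acly (96.8 CPM per kb), Hmgcs1 of cholesterol synthesis (82.8) and the fatty acid synthase Fasn (60) came next, and Fabp4, a fat cell gene, was at the floor. All 24 redox and pentose phosphate genes were expressed. The ferritin chains Ftl1 (971 ± 187 CPM per kb) and Fth1 (440.3 ± 77) were the highest and among the more variable, and both have near-identical copies. Prdx1 (220 CPM per kb) and Txn1 (85.8) followed, whereas the NRF2 target Nqo1 was at only 2.21 ± 0.446 CPM.

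Genes of antigen presentation were expressed at unequal levels, with 16 of 18 MHC class I genes past the threshold. B2m, the light chain, was at 565, 681 and 699.8 CPM (649 ± 72.8, n = 3; 754 CPM per kb). Of the heavy chains, H2-D1 was at 93.2, 93.6 and 109 CPM (38.3 CPM per kb) and H2-K1 at 78.3, 80.3 and 92.5 CPM (28.5 CPM per kb). For all 3 genes library 1 was the lowest and library 3 the highest. The chaperones Calr (422 CPM per kb) and Pdia3 (234) stood above the heavy chains per kb, and both fold glycoproteins in general. The peptide transporter subunit Tap1 was at 5.24, 5.19 and 5.76 CPM (0.986 CPM per kb) and its partner Tap2 at 4.51 CPM per kb. The immunoproteasome subunits Psmb8 (1.3 CPM), Psmb9 (0.706, low) and Psmb10 (3.79), and the class I transactivator Nlrc5 (2.95 ± 0.292), were also measured. Tapbp (48.5 CPM), H2-Q4 (22), Erap1 (21.4), Irf1 (14.9), Tapbpl (4.15) and H2-T23 (2.12) were expressed, and H2-Q7 was at the floor. H2 genes are alike in sequence, so their reads may be split. None of 7 MHC class II genes was expressed: Ciita, the class II transactivator, and H2-Aa had no count, and H2-DMb1 was at 0.895 CPM.

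Of 23 checkpoint and immune ligands, 9 were expressed. Cd274, which encodes PD-L1, was at 23.2, 18.4 and 19.3 CPM (20.3 ± 2.55, n = 3). Its paralogue Pdcd1lg2, named after its value was seen, was at 0.06 ± 0.0126 CPM. Lgals9 (28 CPM per kb), Hmgb1 (27.4), Nectin2 (9.62) and Cd47, a signal that holds off phagocytes (8.69) led the list per kb, and Cd276 (30.6 CPM), Pvr (31.3), Ceacam1 (10.2) and Tnfsf9 (9.18) were expressed. Nt5e, Vtcn1, Tnfsf4 and Nectin1 had no count. Receptors for tumour necrosis factor and interferon were present, with Tnfrsf1a at 137 CPM, Ifngr2 at 133, Ifnar1 at 95.3 and Ifnar2 at 52.1.

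Receptor tyrosine kinases were expressed in 22 of 41, led per kb by the collagen receptor Ddr2 (50.5), Ryk (24.6), Met (22.8) and Erbb3 (19.2), and 13 were at the floor. Of G protein-coupled receptors, 14 of 42 were expressed, with Fzd7 (51.3 CPM per kb), Adgrg1 (46.7) and Smo (13) after Mc1r, and 18 were at the floor. Among adhesion molecules Bsg (234 CPM per kb), Cd44 (117), Cd63 (104) and Cd81 (89.4) led, with 22 of 33 expressed. Cdh2, the N-cadherin, was at 109 CPM and Cdh1, the E-cadherin, at 3.48 CPM, and Cdh3 and Thy1 had no count. Integrins were expressed in 12 of 25, led by Itgb1, the common beta chain (223 CPM per kb), with the alpha chains Itgav (21.4), Itga4 (20.9) and Itga6 (15.4).

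Developmental regulators of the kind that PRC2 silences were mostly silent. Of 314 such genes, 58 were expressed (18.5%), 67 were low and 189 were at the floor (60.2%), 149 of them with no count. Protein-coding genes as a whole were at the floor in 37.0%. The listed germline, liver, muscle and neuron genes were at it in 68.8%, and the listed markers of other cell types in 68.1%. A floor share above that of all protein-coding genes was thus not particular to the developmental regulators. bHLH factors, which specify neurons, muscle and blood, had 32 of 39 at the floor, forkhead factors 16 of 23, other homeobox genes 61 of 99, and developmental signals 27 of 41. GATA, SOX and zinc finger factors had 12 of 47 expressed and T-box factors 5 of 17. Histone methylation was not measured, so the membership of these lists is general knowledge and not a property of these cells. No tally of members at the floor was set between groups, because the floor moves with depth. The expressed tally was 58 under DMSO, 58 under GSK126 and 55 under DZNep, and in the siRNA arm 58 for scr and 57 for siEzh2.

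The Hox clusters, which encode position along the body axis, were expressed in 16 of 39 genes. HoxA had 8 of 11 expressed, HoxB 5 of 10, HoxD 3 of 9 and HoxC none of 9. Hoxa10 was at 31.5, 32.2 and 31.2 CPM, with the libraries close together, and beside it stood Hoxa3 (20.5 CPM), Hoxa7 (13.3), Hoxa5 (7.24), Hoxa9 (4.42), Hoxa11 (3.3) and Hoxa6 (1.72). Hoxa2 (0.902) and Hoxa4 (0.24) were low. In HoxB, Hoxb9 was at 9.16, 6.73 and 6.71 CPM, and the other expressed genes were Hoxb3 (3.58), Hoxb8 (2.84), Hoxb5 (2.07) and Hoxb6 (2.03). In HoxD, Hoxd13, the last gene of its cluster, was at 29, 30.4 and 25.6 CPM, while Hoxd12 next to it had no count in any library. Hoxd4 (2.5 CPM) and Hoxd3 (2.43) overlap in the annotation and are uncertain. Per kb, Hoxd13 (11.4) and Hoxa10 (9.68) were the highest of the 39. Of the 9 HoxC genes 6 had no count, and Hoxc6 was at 0.0627 CPM.

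**Figure D4:**
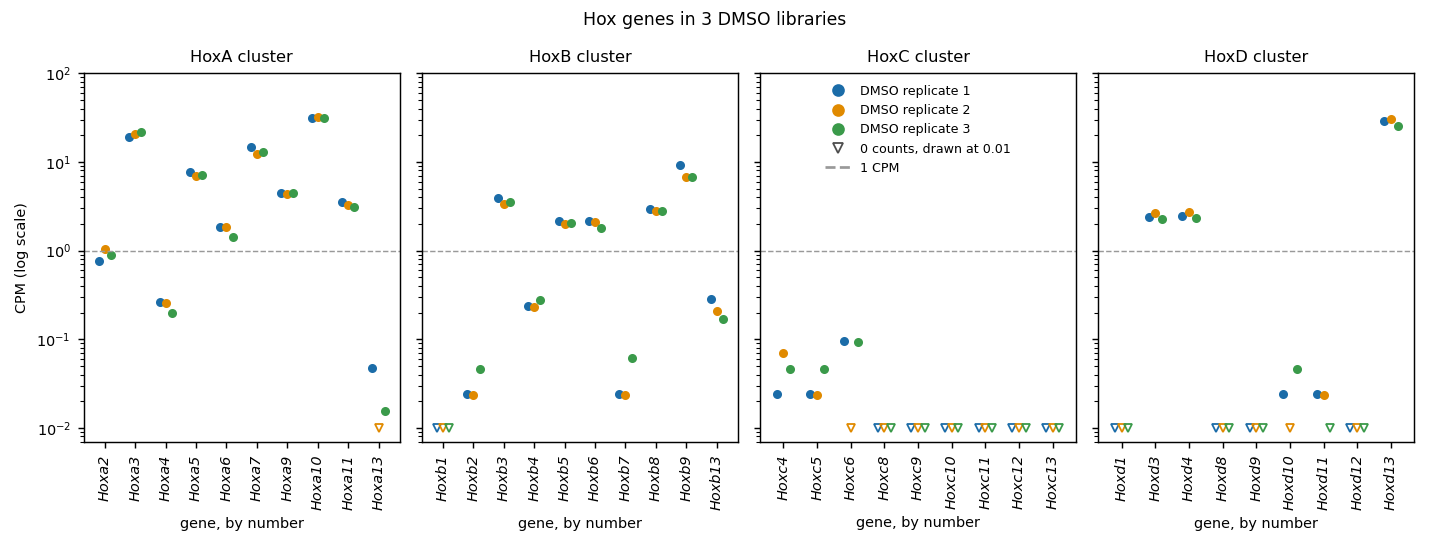
Each panel is 1 Hox cluster with the genes reported here in number order, and points give the CPM on a log axis in each of the 3 DMSO libraries, with open triangles drawn at 0.01 for libraries with no count and a dashed line at 1 CPM. The libraries of Hoxa10 lie close together, no HoxC gene reaches the line, and Hoxd13 stands at 28.4 CPM beside Hoxd12 with no count.

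Outside the Hox clusters, Sox11, a SOX factor of neural and tumour cells, was at 373, 388 and 339.8 CPM. Per kb Pax3 (54.8) and Sox11 (44.1) were the highest of the 314, followed by Tbx2 (22.7), a T-box factor that represses inhibitors of the cell cycle, and Dlx6 (20.1). Mga, a T-box repressor, was at 112 CPM and Gli3, of hedgehog signalling, at 66.7. Alx1 (50 CPM), Tbx4 (49.8), Dlx6 (47.8), Zic2 (47.5), Lmx1b (44.8), Sox9 (34), Zic5 (28.2) and Foxc1 (26.9) are regulators of face, limb or neural crest development. Irx3, Shox2, Onecut2, Sall4 and Irx5 were between 11.1 and 16.7 CPM. Otx1, Pou4f1, Pax9, Foxa1, Tbx15 and Hmx2 were between 5.56 and 8.7 CPM, and Osr2, Sox21, Zic4, Zic1, Gata2, Eomes, Foxd2, Tcf24, Ebf3, Dhh, Tal1, Cer1, Olig3, Vax2 and Dlx1 between 1.15 and 4.58 CPM. For CG dinucleotides, each gene was given its window with the most of them. The median over genes was 23 for the 9035 expressed genes with a window and 3 for the 7622 at the floor with one. Over the developmental regulators the median was 21 for the 36 expressed genes with a window and 18 for the 129 at the floor. Among these regulators, no window of an expressed gene held more than that of Pou4f1 (57). None at the floor held more than that of Barx1 (50), and both are printed above. Of lists of other tissues, the median was 18 for germline genes, 13 for neuron genes, 7 for muscle genes and 4 for liver and for blood genes.

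The Polycomb machinery itself was expressed. Of 13 PRC2 genes 12 were expressed. Ezh2, the gene that the siRNA targets and whose product GSK126 inhibits, was at 204, 209 and 208 CPM (207 ± 2.66, n = 3; 31 CPM per kb). Its paralogue Ezh1 was at 42 ± 2.13 CPM (5.64 CPM per kb). The core subunits Suz12 (317 CPM), Rbbp4 (189), Rbbp7 (157) and Eed (30.7) and the cofactors Aebp2 (232), Jarid2 (106), Mtf2 (39.5), Phf1 (16.9), Phf19 (13.6) and Epop (8.85) were expressed, and Ezhip, a PRC2 inhibitor of germ cells, had no count. All 21 PRC1 genes were expressed, led per kb by Bmi1 (47.5), Pcgf2 (31), Yaf2 (28) and the ubiquitin ligase Rnf2 (20.8). The lysine 27 demethylases Kdm6b (143 ± 27.9 CPM) and Kdm6a (69.6 ± 7.08) and the DNA methylation factors Uhrf1 (384 CPM) and Dnmt1 (305) were expressed, and Uty and Dnmt3l were at the floor.

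Genes of other tissues were mostly silent. Of 30 germline genes 3 were expressed, Xlr3a (21.4 CPM, a family of near-identical copies), Ddx4 (2.34) and Brdt (1.39). None of 10 liver genes, 1 of 12 muscle genes (Des, 10.3 CPM) and 2 of 12 neuron genes (Tubb3, 41 CPM, and Slc17a7, 1.41) were expressed. Blood markers had 13 of 17 with no count and a summed level of 4.36 to 4.90 CPM over the DMSO libraries, from Cd68 (2.47) and Fcer1g (1.87) mainly. Of 7 endothelial markers Vwf (5.99) was expressed, and of 11 epithelial markers Cdh1. Fibroblast markers summed to 196 to 234 CPM and were expressed in 5 of 12, Fbln1 (186 CPM), Pdgfra, Pdgfrb, Postn (6.66) and Col1a2 (3.18), with Dcn, Thy1 and Acta2 at no count. In bulk RNA, a few cells of another type and a low level in every cell cannot be told apart. Of 1570 genes on chromosome Y, none was expressed and 1568 were at the floor, with 51 counts in all, 3 of them on protein-coding genes. Xist, the X inactivation RNA, was at 0.159 ± 0.049 CPM.

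The vehicle baseline was then set against the other control of the series, scr. All tests are edgeR's quasi-likelihood test with Benjamini-Hochberg adjustment over 15152 genes. Most pigment genes were lower in scr than under DMSO. Of the 14 genes of the melanin list 11 fell, Cited1 and Tyro3 among them, and 1 rose. Beside these, 13.6% of all genes tested were lower and 12.2% were higher in scr. The list's median log2 difference was -0.42. Over all genes it was near 0. Of all scr calls 47.3% were higher, and 58.5% when libraries were scaled by their totals alone. Tyrp1 was at 6873 to 7161 CPM in scr and 8934 to 9126 CPM in DMSO, so the groups did not overlap, and its log2 difference was -0.38 ± 0.05 (edgeR adjusted p = 5.9e-06). Mlana was at 847 to 878 CPM in scr, under all DMSO libraries, with a log2 difference of -0.53 ± 0.06 (edgeR adjusted p = 4e-06). Tyr went the other way, at 86.3 to 91 CPM in scr against 66.3 to 79.6 in DMSO (log2 0.31 ± 0.06, edgeR adjusted p = 0.00066). These 12 calls held under each of the 11 alternatives run. Of 15 transcription factors tested, 9 fell, Mitf among them (-0.31 ± 0.06, edgeR adjusted p = 0.00045), and Tfap2b rose, while Sox10 did not pass (-0.18 ± 0.08, edgeR adjusted p = 0.092). The call on Tfap2b was lost without DMSO replicate 3, without scr replicate 3 and in the fit of the compared groups alone, and between 7 and 10 of the list fell under the alternatives.

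MHC class I genes were also lower in scr, with 13 of 17 fallen, beside 13.6% of all genes tested. The other 4 passed no threshold, and the list's median log2 difference was -0.35. Tapbp, the chaperone of peptide loading, was at 26.7 to 29.2 CPM in scr against 43.2 to 55.1 in DMSO (-0.79 ± 0.08, edgeR adjusted p = 9.7e-07). H2-K1 (-0.39 ± 0.06, edgeR adjusted p = 0.00011) and H2-D1 (-0.31 ± 0.06, edgeR adjusted p = 0.0005) fell less, and B2m by 0.34. Between 10 and 13 of the list fell under the alternatives, where Tap1, Erap1 and Pdia3 were lost in some. Of 35 lipid genes 21 fell and 2 rose, beside 13.6% and 12.2% of all genes tested. Hmgcs1 was among those that fell (-0.71 ± 0.07, edgeR adjusted p = 2.9e-07). Of 27 glycolysis genes 12 rose, beside 12.2% of all genes tested, and the other 15 did not pass. Without DMSO replicate 2, 8 rose. Cd274 rose (0.44 ± 0.07, edgeR adjusted p = 0.00016), at 26.6 to 29.4 CPM in scr. Of 7 fibroblast markers tested, Col1a2 rose (1.60) and Pdgfra fell (-1.64). The endothelial Vwf (-1.52) and the epithelial Cdh1 (-0.36), the single markers of their lists that could be tested, fell, and of the blood markers Cd68, Lyz2 and Fcer1g did not pass. The part of such cells in the result was not tested. The siRNA handling and the vehicle cannot be told apart in this comparison. The library numbers in the sample titles also lie apart for scr and DMSO, and whatever goes with them cannot be told apart either.

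**Figure D5:**
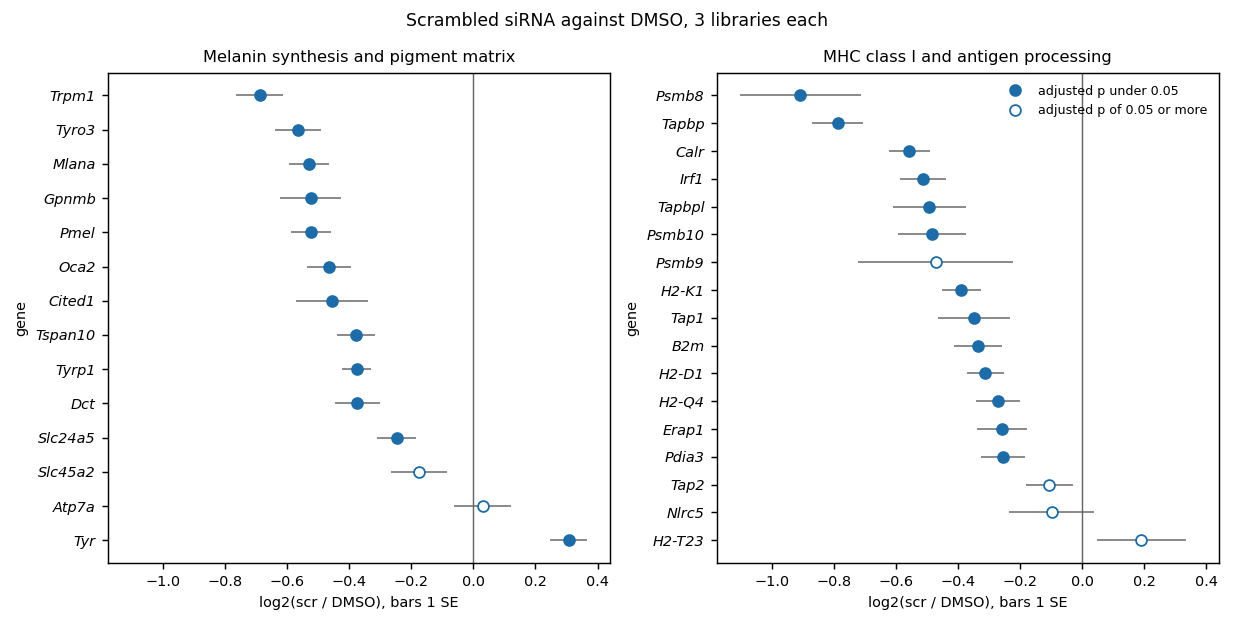
Points give the log2 difference of scr from DMSO (edgeR, 3 libraries each) for melanin and MHC class I genes that were tested, bars are 1 SE, and filled points have an adjusted p under 0.05. Of the 14 melanin genes 11 lie filled on the left and Tyr alone filled on the right, and 13 of the 17 MHC class I genes lie filled on the left.

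Of the 314 developmental regulators, 94 passed the count filter and could be tested, a filter that a gene passes more readily where it is high in some group. The comparisons with GSK126 and DZNep use the same DMSO libraries as each other, so their values are set side by side only. With GSK126, 12 rose and 7 fell, beside 7.15% of all genes tested that rose and 5.54% that fell. The share of regulators that fell was thus near that of all genes. With DZNep, 28 rose and 37 fell, beside 31.2% and 31%, so its share that rose was near that of all genes. Markers of other cell types moved too. With DZNep, 5 of 7 fibroblast markers tested rose, among them Postn (2.79) and Col1a1 (2.02), as did Cd68 and Fcer1g of 3 blood markers, the endothelial Vwf (1.04) and the epithelial Cdh1 (1.70). With GSK126, Col1a2 rose (0.91), and Col1a1 (-0.93), Fbln1 (-0.23) and Fcer1g (-0.62) fell. Their part in the results was not tested. Dlx6, a homeobox gene of face and limb, was at 46.6, 45.5 and 51.4 CPM in DMSO, 99.7 to 103 CPM with GSK126, 32.5 to 35.1 with DZNep and 83.7 to 95 in scr. Its log2 difference was 1.09 ± 0.06 with GSK126 (edgeR adjusted p = 2e-10), -0.49 ± 0.06 with DZNep (edgeR adjusted p = 9.4e-07) and 0.91 ± 0.06 in scr (edgeR adjusted p = 1.6e-09). Both scr and GSK126 thus lay above every DMSO library. Otp, a hypothalamic homeobox gene, was low at 0.478, 0.419 and 0.524 CPM and rose with GSK126 to 0.965 to 1.31 CPM (1.23 ± 0.22, edgeR adjusted p = 0.00087), and was at 1.33 to 1.69 CPM in scr. Foxc1 rose with GSK126 by 0.55 ± 0.05 (edgeR adjusted p = 7.9e-07), Tbx15 by 0.66, Osr2 by 0.65, Tcf24 by 0.66, Sox11 by 0.30 and Hoxd13 by 0.35, and Pax3 fell by 0.36, all under each alternative. Hoxa10 (0.24) and Olig3 (0.72) were lost without GSK126 replicate 3. The calls on Hmx2, Irx3, Tbx4, Foxa1, Sall3, Hes7 and Dhh were each lost under 1 or more alternatives, and Hmx2 only without DMSO replicate 3. Over the list, 10 rose and 1 fell without DMSO replicate 3, 8 rose and 4 fell without GSK126 replicate 3, 10 rose and 3 fell without GSK126 replicate 2, and 13 rose and 4 fell without DMSO replicate 2. Without GSK126 replicate 1, whose library number lies near the siRNA arm, 13 rose and 3 fell.

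Hox genes showed how a baseline level stood against each group. Of the 20 tested, 5 rose in scr, Hoxa4, Hoxa7, Hoxb5, Hoxb6 and Hoxb9, beside 12.2% of all genes tested. Only 3 rose without DMSO replicate 2, without DMSO replicate 3, without scr replicate 2 or without scr replicate 3, and 4 without scr replicate 1, 3 of them among these 5. With GSK126, 2 rose, beside 7.15% of all genes, so the share that rose was near that of all genes. Without GSK126 replicate 3, 1 rose and 1 fell. With DZNep, 6 rose and 10 fell, beside 31.2% and 31% of all genes, so the share that rose was near that of all genes. Hoxb9 was 1.07 ± 0.12 higher in scr (edgeR adjusted p = 2.9e-06) and 3.40 ± 0.19 lower with DZNep on the log2 scale. No HoxC gene passed the filter in any group. Ezh2 RNA did not pass with GSK126 (0.05 ± 0.05, edgeR adjusted p = 0.57) or in scr (0.08 ± 0.05, edgeR adjusted p = 0.22) and fell with DZNep by 0.41 (edgeR adjusted p = 3.7e-07). Of the 14 melanin genes, 6 fell with GSK126, beside 5.54% of all genes tested, and the other 8 did not pass. Under the alternatives between 4 and 8 fell, with 4 without GSK126 replicate 2 and 4 without GSK126 replicate 3. With DZNep 8 rose and 4 fell, beside 31.2% and 31%, so the share that fell was near that of all genes, and Dct fell by 0.82.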

How the data were processed

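RNA of 15 B16-F10 libraries was sequenced, 3 of them under DMSO. The values are whole-number read counts per gene as the authors deposited them, not normalized. STAR (aligner), featureCounts (counter) and the build GRCm38 are named, per the submitters' processing notes. For versions, annotation, strand and multi-mapping the setting is not given in the sources used here, so overlapping and near-identical genes may share or lose reads. GENCODE M21 held 45229 of the 46078 identifiers and gave symbols, coordinates and exon lengths. The other 849 held 0.0588% of counts.

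CPM used TMM-scaled totals. Counts were tested with edgeR 4.0.16 in R 4.3.3 (quasi-likelihood, robust, TMM, its low-count filter) in a single model of 15 libraries and 5 group terms, without covariates, over 15152 genes, at a Benjamini-Hochberg adjusted p under 0.05. Its common dispersion of 0.00409 equals a coefficient of variation of 6.4%. DESeq2 1.42.0 was an alternative, and the fit was tested on simulated data. In DMSO, 1 count was worth 0.0154 to 0.0239 CPM, and floors cover counting error only. Python 3.11.15 with pandas 2.3.3 made the summaries. A log2 difference is given ± its SE.

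Of 1073 listed symbols in 52 lists, 1072 matched. Members and lists were chosen with earlier results of these data known. Named genes were Ezh2, the 10 highest by CPM and by CPM per kb, the 6 most variable, the 4 highest per kb and the floor members of lists, all members of 8 lists (melanin, melanocyte factors, cell cycle entry, MAPK, PRC2, Hox, MHC class I, Y-linked), and expressed or called developmental regulators; floor members of the large lists are given as counts. The few others were named after their values were seen. Some genes of these lists are not reported here and are not drawn, but stay in the counts.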

Additional observations from a re-analysis of the deposited data

How the results depend on the processing

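The floor is 3 counts over 3 libraries of unequal size, so depth limits what is called silent. Of protein-coding genes alone, 7995 were at it. Levels of 281 named genes rose by a median ratio of 1.09 when mitochondrially encoded counts were left out of the totals, 168 of them by over 1 SD, and under library totals alone 1 of them moved by over 1 SD. The level of Apoa1 without DMSO replicate 1 and those of Hoxb7 and Hoxd10 without DMSO replicate 3 moved by over 1.5-fold. Leaving out 1 DMSO library gave 12276 to 12293 expressed genes and 28394 to 28834 at the floor, and 58 to 60 expressed and 198 to 204 floor members among the developmental regulators.

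Calls in scr numbered 3920, and 3030 to 3853 without any 1 library. DZNep calls numbered 9434, and 8739 to 9466 without any 1 library. When the other groups were left out of the fit, scr calls numbered 2916 and DZNep calls 8401. GSK126 calls numbered 1923 but 1131 when the other groups were left out of the fit, and 1183 to 2490 without any 1 library: 1237 without DMSO replicate 3, and 1229, 1183 and 1203 without GSK126 replicates 1, 2 and 3. The cause was not tested. Of the GSK126 calls 56.4% were higher, against 63.7% in the fit of the compared groups and 64.4% with library totals. With a replicate block the calls were 3904, 1937 and 9451 in scr, GSK126 and DZNep. For pairing, each library's deviation from its group's mean log CPM was taken gene by gene. These deviations, not the levels, were correlated between each same-numbered library and its DMSO library. The correlations were 0.0136 to 0.156 (scr), -0.0008 to 0.0914 (GSK126) and 0.0052 to 0.0405 (DZNep). Differently numbered libraries were not set beside them, so these values cannot decide whether the numbers pair the samples. Of single genes, the uncalled scr difference of Atp7a, 0.03, was -0.10 without DMSO replicate 3 and -0.0024 without scr replicate 1. The count of regulators with no read (149) was an alternative chosen after seeing the data.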
